A study of Homo sapiens with 10 samples.

Results

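The enzymes that write and erase DNA methylation were followed at the level of RNA and of translation. The set was chosen by name as 7 genes: the dioxygenases TET1, TET2 and TET3, the methyltransferases DNMT1, DNMT3A and DNMT3B, and UHRF1, which brings DNMT1 to newly replicated DNA. Of these, 6 were matched from versioned Ensembl IDs to symbols, among 55889 IDs in each file. UHRF1 was not analysed here, because its symbol could not be matched to an ID in the files.

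The cells were of KOPT-K1, an established line from human T-cell acute lymphoblastic leukaemia. One group received 25 nM silvestrol for 45 min, and the other received the solvent DMSO. Silvestrol inhibits eIF4A, the helicase that unwinds the 5' end of messenger RNA before translation starts. Each treatment had 2 libraries of ribosome-protected fragments, called footprints, and 3 libraries of total RNA, 10 in all. Both groups were grown in RPMI with fetal bovine serum, and the labels name no genetic change. They do not say whether replicates were separate cultures, so p-values here cover library-to-library spread alone, which could be technical.

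DNA methylation in mammals is set by DNMT3A and DNMT3B, which methylate new sites, and kept through cell division by DNMT1. TET enzymes oxidise 5-methylcytosine, after which it is lost by base excision repair or by dilution at replication. TET2 and DNMT3A are among the genes recurrently mutated in blood cancers, including T-cell malignancies. The comparisons below address whether a short block of eIF4A changed ribosome occupancy of these genes, their RNA, or the ratio of footprints to RNA, called translational efficiency (TE).

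Levels were deposited as RPKM, reads scaled by exon length and by library size. In such bulk libraries fewer cells and less RNA or translation per cell cannot be told apart. By an estimate from the steps between low values, the footprint libraries held 2.38 and 2.04 M reads with silvestrol and 2.27 and 1.66 M with DMSO. The RNA libraries held roughly 127 to 178 M with silvestrol and 160 to 217 M with DMSO. On the log2 scale replicates had a median SD of 0.19 for silvestrol footprints and 0.18 for DMSO footprints, but 0.05 for silvestrol RNA and 0.04 for DMSO RNA. Of the labelled cell type, 10 of 11 T-lineage markers averaged at least 1 RPKM in RNA, with a median of 58.7 RPKM over the 11. All myeloid (6), erythroid (4) and matched stromal and endothelial (4) markers averaged under 1 RPKM. Of 6 B-cell markers CD79A (31.4 RPKM) and CD79B (8.30 RPKM) were above 1 RPKM, while PAX5, MS4A1 and CD22 were listed at 0.

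The 5' untranslated region (UTR) is the stretch that eIF4A unwinds, and the title of the series concerns RNA G-quadruplexes, folds built from runs of G. The 5' UTRs of the 6 matched genes were therefore read from GENCODE release 29 (GRCh38), 1 transcript per gene. The pattern searched was 4 runs of at least 2 G on the RNA strand, separated by gaps of 1 to 7 bases, and in a stricter form 4 runs of at least 3 G. The longest match in each of the 4 genes that had one is shown, with capitals for runs of at least 2 G, because these are the letters the pattern rests on.
TET1, exon 1, chr10:68560681-68560698, plus strand: GGGctGGtgcaGGcttGG
TET2, exon 1, chr4:105146575-105146600, plus strand: GGGagccGGGGctgaGGGccccaGGG
DNMT3A, exon 1, chr2:25342529-25342556, minus strand: GGGcgaaGGccgccGGGGGctccgcGGG
DNMT3B, exon 1, chr20:32762536-32762560, plus strand: GGccGGcagcgctGGGGttaagtGG

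Of these 4 genes TET2 was the one with a strict match in the transcript read, the sequence printed. It ends 552 bases before the coding start in a 5' UTR of 860 nt. That 5' UTR is the longest among the 5 coding transcripts of TET2 (140 to 860 nt), and 2 of the 5 held a strict match. Strict matches were present in 11.2% of 8813 tested genes with an annotated 5' UTR, and loose matches in 69.8%. No member held 4 consecutive GGC or CGG units, which 4.74% of those genes did. DNMT1 had a 5' UTR of 236 nt and no match to any of the patterns. The annotated main transcript of TET3 starts at its coding sequence and has 0 nt of 5' UTR, and its other coding transcript has 65 nt, so the TET3 5' UTR could not be examined beyond that. The TET1, DNMT3A and DNMT3B 5' UTRs were 209, 338 and 321 nt, against a median of 206 nt. Another annotated DNMT3B transcript, 1 of 6, also held a strict match. A match is a run of letters and not a measured fold, and an absent match says nothing about the factor.

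At the RNA level the methyltransferases were well above the dioxygenases. RPKM is per length, so levels can be set beside each other only as far as the lengths used fit the transcripts in these cells. In DMSO RNA the order was DNMT1, DNMT3A, DNMT3B, TET3, TET2 and TET1. DNMT1, the maintenance enzyme, averaged 74.3 ± 1.04 RPKM in silvestrol RNA and 73.8 ± 0.907 RPKM in DMSO RNA (SD, n = 3 each), and its DMSO level lay at the 93.1st percentile of 10297 tested genes. DNMT3A followed with 19.9 ± 0.208 RPKM in silvestrol RNA and 19.5 ± 0.346 RPKM in DMSO RNA (SD, n = 3 each). DNMT3B, its partner in methylating new sites, had 17.4 ± 0.603 RPKM in silvestrol RNA and 18.4 ± 0.115 RPKM in DMSO RNA (SD, n = 3 each). The ranges of DNMT3A and DNMT3B did not overlap in either treatment, so their order held in all 6 RNA libraries. All 6 share the same gene lengths, so an ill-fitting length could set the order of levels this close.

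TET3 was the most abundant of the 3 dioxygenases, at 9.46 ± 0.729 RPKM in silvestrol RNA and 8.94 ± 0.841 RPKM in DMSO RNA (SD, n = 3 each). TET2 averaged 2.02 ± 0.0964 RPKM in silvestrol RNA and 2.00 ± 0.0961 RPKM in DMSO RNA (SD, n = 3 each). TET1 averaged 1.79 ± 0.05 RPKM in silvestrol RNA and 1.67 ± 0.0917 RPKM in DMSO RNA (SD, n = 3 each). Both lay low among tested genes, at the 6.17th percentile for TET2 and the 3.93rd for TET1 in DMSO RNA. TET2 was above TET1 in all 6 RNA libraries, without overlap in either treatment, an order that also rests on the lengths used.

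**Figure D1:**
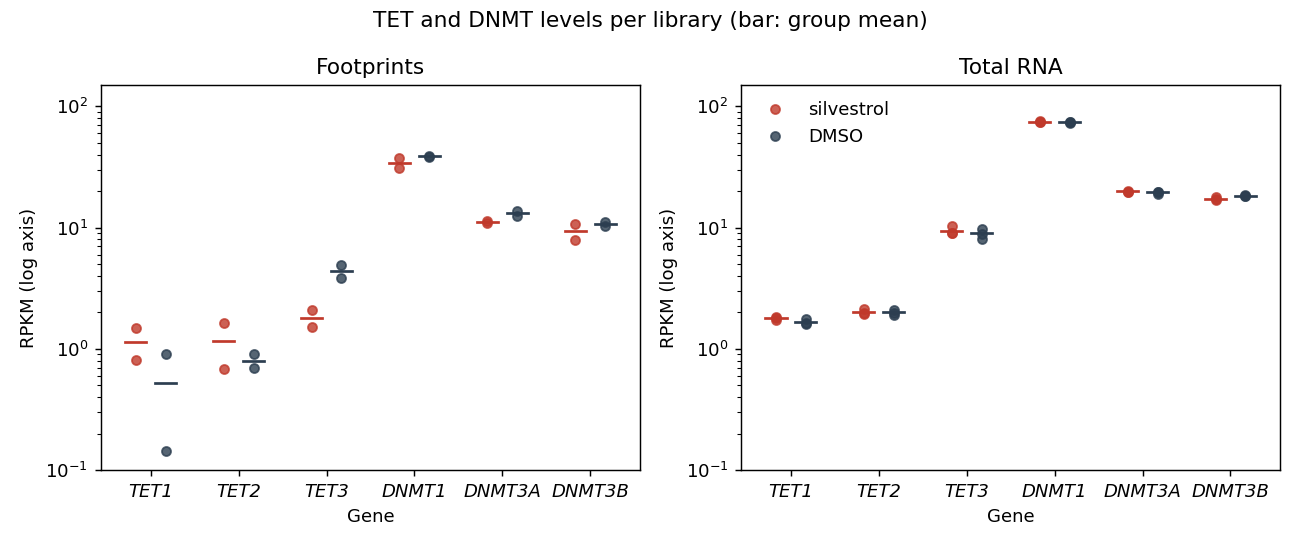
RPKM of the 6 matched genes in each footprint library (left) and each total RNA library (right), on a log axis, with silvestrol libraries left of DMSO libraries and a bar at each group mean. TET3 footprints were 1.51 and 2.11 RPKM with silvestrol and 3.86 and 4.95 RPKM with DMSO, while the RNA points of each gene lie close together.

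TET3, the dioxygenase with the most RNA here, had the lowest footprint ratio of the set after treatment. Its footprints were 1.51 and 2.11 RPKM in silvestrol libraries, against 3.86 and 4.95 RPKM in DMSO libraries. Both silvestrol values lay below both DMSO values, and the highest silvestrol value was under the lowest DMSO value by more than either group's SD. These values rested on an estimated 44.1 and 52.8 reads with silvestrol and 107 and 101 reads with DMSO. Its RNA was 9.09, 8.99 and 10.3 RPKM in silvestrol libraries, against 8.13, 8.89 and 9.81 RPKM in DMSO libraries, and these ranges overlapped.

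The TET3 difference did not pass the test across all genes. In limma on the 4 footprint libraries the log2 change was -1.09 ± 0.312 (SE; 95% interval -1.85 to -0.33), with a Benjamini-Hochberg adjusted p of 0.603. That is 0.470 times the DMSO level on the log2(RPKM + 0.5) scale, and 2.03% of tested genes had a change as low or lower. For TE, the footprint change minus the RNA change, the log2 change was -1.17 ± 0.477 (SE; 95% interval -2.21 to -0.12), with an adjusted p of 0.610 in limma with weights per assay. For RNA alone it was 0.08 ± 0.0716 (SE, log2), with a limma adjusted p of 0.868.

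The call on TET3 depended on how the spread was modelled. When both assays were given 1 shared spread, the SE of the TE change was 0.213 and TET3 was called at a limma adjusted p of 0.0233, the only 1 of 4 tested members to be called. That fit called 5.29% of all tested genes. It gives footprints and RNA the same spread, although footprint replicates differed more. With weights per assay 0.107% of tested genes were called for TE (11 genes), 0.0486% for footprints (5 genes) and 0.282% for RNA (29 genes), and none of the 4 tested members was among them in limma. At an unadjusted p under 0.05 there were 760, 719 and 950 genes, and of the members TET3 was there for TE and footprints and DNMT3B for RNA. TET3 TE was below 0 under all 18 alternatives that included it. This is no added support, because the alternatives reuse the same libraries and some leave the estimate itself unchanged. With both silvestrol footprint values below both DMSO values, leaving out 1 footprint library could hardly turn the sign.

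**Figure D2:**
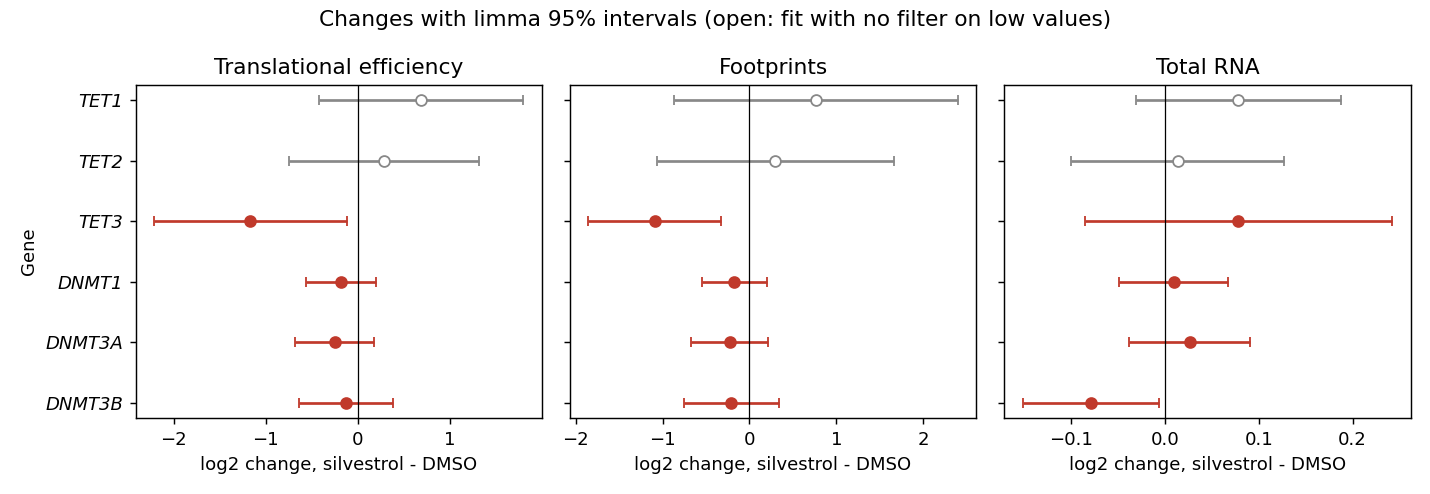
Log2 change, silvestrol minus DMSO, of each gene (rows) in TE, footprints and total RNA, with limma 95% intervals; the horizontal scale differs between panels. Filled points are tested members, and open points are TET1 and TET2 in the fit with no filter on low values. The TET3 interval lies below 0 for TE (-2.21 to -0.12) and for footprints (-1.85 to -0.33).

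DNMT1 had the most footprints of the set. Its footprints were 37.8 and 31.0 RPKM with silvestrol, against 39.3 and 38.1 RPKM with DMSO, from an estimated 619 to 881 reads with silvestrol and 620 to 873 with DMSO. The silvestrol values were both lower, by a margin smaller than the SD between the 2 silvestrol libraries (4.81 RPKM). In RNA it was 73.8, 73.6 and 75.5 RPKM with silvestrol and 73.0, 73.7 and 74.8 RPKM with DMSO, which overlapped. The limma change in footprints was -0.17 on the log2 scale (95% interval -0.55 to 0.20, adjusted p = 0.824), and in TE -0.18 (95% interval -0.56 to 0.20, adjusted p = 0.885). The RNA change was 0.01 (95% interval -0.05 to 0.07, adjusted p = 0.981).

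DNMT3A footprints were 10.9 and 11.4 RPKM with silvestrol, against 13.8 and 12.5 RPKM with DMSO. Both silvestrol values were below both DMSO values, and the gap between the groups exceeded the SD of either one. In RNA it was 19.7, 19.8 and 20.1 RPKM with silvestrol and 19.1, 19.7 and 19.7 RPKM with DMSO. The groups touched at 19.7 RPKM. The limma change in footprints was -0.23 (95% interval -0.67 to 0.22, adjusted p = 0.812), in TE -0.25 (95% interval -0.68 to 0.17, adjusted p = 0.842) and in RNA 0.03 (95% interval -0.04 to 0.09, adjusted p = 0.907).

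DNMT3B footprints were 7.9 and 10.7 RPKM with silvestrol, against 11.1 and 10.3 RPKM with DMSO, and the groups overlapped. The limma change in footprints was -0.21 (95% interval -0.75 to 0.34, adjusted p = 0.858), and in TE -0.13 (95% interval -0.64 to 0.39, adjusted p = 0.951). Both TE and footprint changes turned to slightly above 0 without silvestrol footprint replicate 1, at 0.08 for TE and 9.2e-04 for footprints. Its RNA was the member RNA with the smallest p: 18.0, 17.3 and 16.8 RPKM in silvestrol libraries, against 18.3, 18.3 and 18.5 RPKM in DMSO libraries. All silvestrol values were lower, and the change was -0.08 ± 0.0328 (SE, log2), with a limma adjusted p of 0.494.

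Separation of the groups was common among all genes, so it is read against that background. In footprints every silvestrol library was below every DMSO library in 25.2% of tested genes, and this was so for TET3, DNMT1 and DNMT3A of the 4 tested members. In RNA it was so in 3.99% of tested genes, and for DNMT3B among the members. The median log2 change over tested genes was -0.08 in TE, -0.07 in footprints and 0.003 in RNA. RPKM is scaled to each library's own total, so a fall of footprints common to all genes cannot show in these values, and each change is relative to the library.

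**Figure D3:**
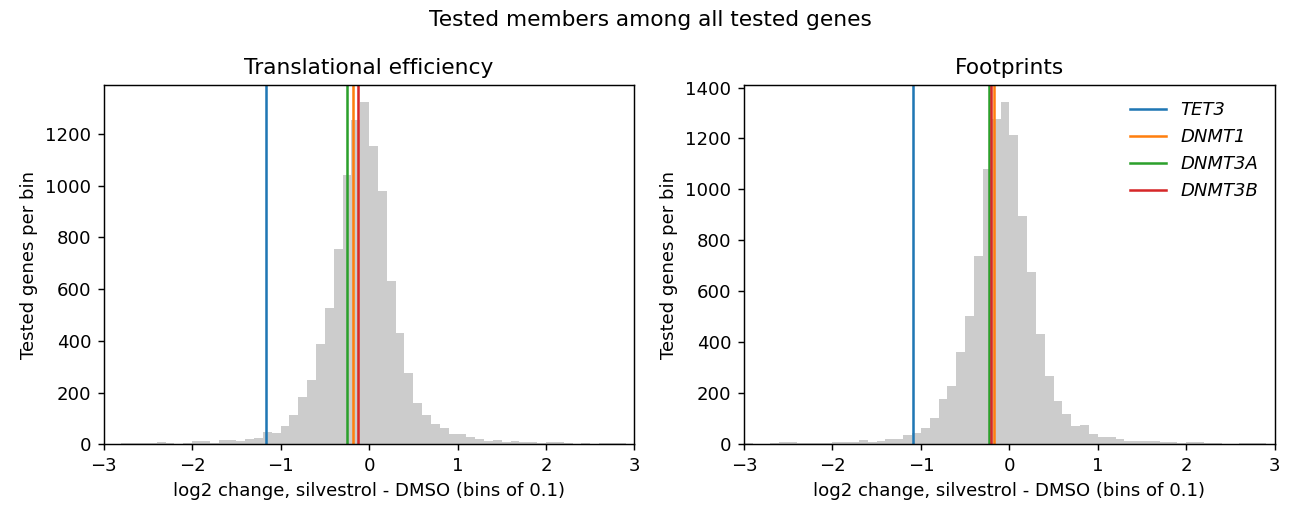
Number of tested genes per bin of 0.1 in log2 change, silvestrol minus DMSO, for TE (left) and footprints (right), with a line at each tested member; 29 genes for TE and 27 for footprints lie beyond 3 in either direction. TET3, at -1.17 and -1.09, lies in the lower tail, and DNMT1, DNMT3A and DNMT3B lie near the middle.

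TET1 and TET2 had too few footprints to be tested, with a mean under 1 RPKM over the 4 footprint libraries. TET1 had 0.815 and 1.48 RPKM in silvestrol footprints, against 0.143 and 0.907 RPKM in DMSO footprints, which is an estimated 18.0 and 28.0 reads against 3.01 and 14.0. The groups overlapped, and DMSO replicate 1 held the lowest value. TET2 had 0.689 and 1.64 RPKM in silvestrol footprints, against 0.911 and 0.694 RPKM in DMSO footprints, an estimated 27 and 55.1 reads against 34.0 and 19.0. Here silvestrol libraries held both the lowest and the highest value.

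With no filter on low values, 17428 genes entered the fits and the limma intervals of both were wide. The footprint change of TET1 was 0.76 (95% interval -0.87 to 2.40, adjusted p = 0.800) and that of TET2 was 0.30 (95% interval -1.07 to 1.66, adjusted p = 0.895). For TE the changes were 0.68 for TET1 (adjusted p = 0.889) and 0.28 for TET2 (adjusted p = 0.957). The direction for TET2 rested on 1 library: without silvestrol footprint replicate 2 its difference was -0.13 in footprints and -0.14 in TE. Without DMSO footprint replicate 1 the TET1 difference was 0.20 in footprints and 0.12 in TE. In RNA, where depth was not limiting, TET1 changed by 0.08 (95% interval -0.03 to 0.19, adjusted p = 0.767) and TET2 by 0.01 (95% interval -0.10 to 0.13, adjusted p = 0.986). In these fits 0.0861% of genes were called for TE, 0.0115% for footprints and 0% for RNA, where 1394 genes had an unadjusted p under 0.05, and no member was called.

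The share of TET3 within its family was lower in silvestrol footprints than in DMSO footprints. TET3 took 45.2 ± 6.90% of the summed TET footprint RPKM with silvestrol and 77.1 ± 2.11% with DMSO (SD, n = 2 each). The ranges, 40.3 to 50.1% and 75.6 to 78.6%, did not overlap, but a two-sided exact permutation test of 2 against 2 libraries cannot go below p = 0.333, which it gave. In RNA the TET3 share was 71.3 ± 1.13% with silvestrol and 70.9 ± 0.910% with DMSO (SD, n = 3 each; exact permutation p = 0.7). The silvestrol share also rests on the few reads of TET1 and TET2. The sum itself was 3.01 and 5.23 RPKM with silvestrol and 4.91 and 6.55 RPKM with DMSO, so the sums overlapped.

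Among the methyltransferases the footprint shares overlapped between treatments. DNMT1 took 62.6 ± 5.94% of the summed DNMT footprint RPKM with silvestrol and 61.9 ± 0.952% with DMSO (SD, n = 2 each). DNMT3A took 20.4 ± 1.56% with silvestrol and 21.0 ± 0.686% with DMSO, and DNMT3B 17.1 ± 4.38% with silvestrol and 17.1 ± 0.266% with DMSO (SD, n = 2 each). The DNMT sum was 56.6 and 53.1 RPKM with silvestrol, against 64.2 and 60.9 RPKM with DMSO. In RNA DNMT3B took 15.6 ± 0.600% with silvestrol and 16.4 ± 0.115% with DMSO (SD, n = 3 each), with a two-sided exact permutation p of 0.1, the smallest that 3 against 3 allows. DNMT3A took 17.8 ± 0.125% of RNA with silvestrol and 17.5 ± 0.169% with DMSO (SD, n = 3 each), also separated, in the opposite direction, with the same exact permutation p. These 2 were among 12 shares compared, 6 genes in 2 assays, and the footprint shares of TET1, TET2 and TET3 were separated as well. Shares of a family add up to its whole, so opposite directions within it are not independent results.

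**Figure D4:**
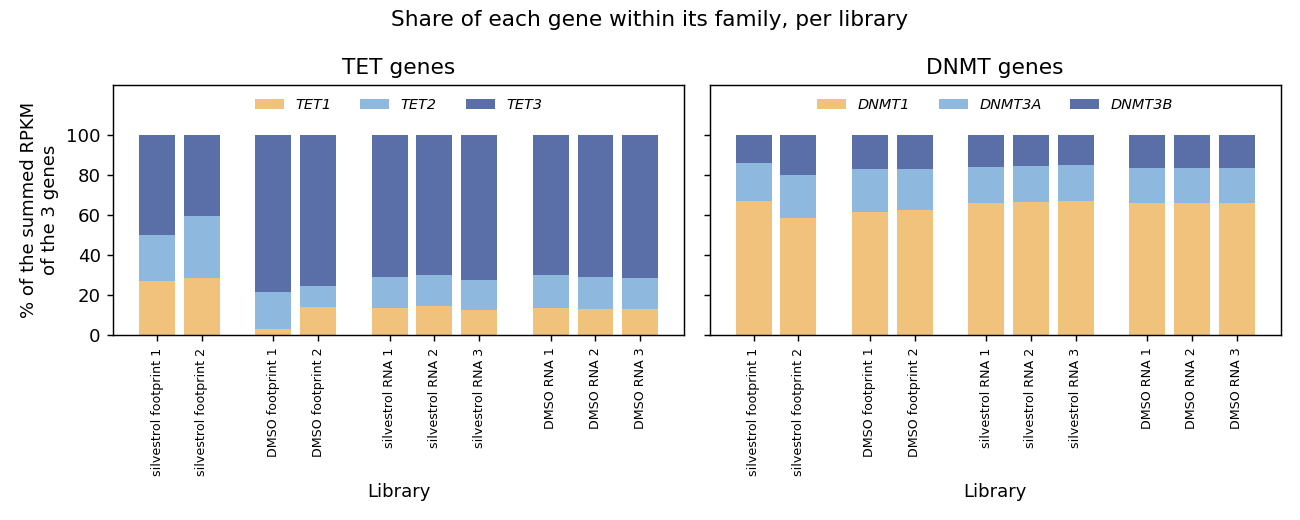
Share of each gene in the summed RPKM of the 3 TET genes (left) and the 3 DNMT genes (right), in percent, 1 bar per library. The TET3 share of footprints is 50.1 and 40.3% with silvestrol and 78.6 and 75.6% with DMSO, and its share of RNA is 70.2 to 72.4% with silvestrol and 69.9 to 71.7% with DMSO.

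On the exon-length scale the ratio of footprints to RNA was below the median of tested genes for the 6 matched genes in DMSO. The ratio of mean footprint RPKM to mean RNA RPKM in DMSO was 0.314 for TET1, 0.402 for TET2, 0.492 for TET3, 0.524 for DNMT1, 0.583 for DNMT3B and 0.674 for DNMT3A, with a median of 0.740 over tested genes. In silvestrol the TET3 ratio was 0.191, which placed it at the 4.56th percentile of tested genes, against the 24.1st in DMSO. The ratio of DNMT1 was 0.463 in silvestrol, that of DNMT3B 0.535 and that of DNMT3A 0.561. TET2 came to 0.577 in silvestrol and TET1 to 0.641, the highest of the set, at the 44.6th percentile in silvestrol against the 9.35th in DMSO, from the few reads given above. The median over tested genes in silvestrol was 0.694.

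Ribosomes occupy the coding sequence, while RPKM divides by all exon bases, so genes with much untranslated RNA tend to have low ratios. Exon length here joins the exons of all annotated transcripts, while coding length is that of 1 transcript. Exons not used in these cells would lower the coding share and raise a ratio rescaled to coding length. Only footprints were rescaled, and RNA stayed on exon length. Coding sequence made up 22.8% of the exon length of DNMT3A and 69.0% of that of TET1, with TET2 at 36.5%, TET3 at 43.9%, DNMT1 at 49.5% and DNMT3B at 55.3%. With footprints divided by coding length instead, DNMT3A reached a ratio of 2.96 in DMSO, above the median of 2.45 over 8924 coding genes. DNMT1, DNMT3B, TET2 and TET3 lay close together at 1.06, 1.05, 1.10 and 1.12, between the 14.0th and 15.8th percentile, and TET1 at 0.456. In silvestrol TET3 came to 0.436 on this scale, at the 2.28th percentile. On the same scale the DMSO footprint levels were 78.2 RPKM per coding length for DNMT1, 57.8 for DNMT3A, 19.4 for DNMT3B, 10 for TET3, 2.20 for TET2 and 0.761 for TET1.

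The order of footprint levels held for the most abundant genes but not at the low end. DNMT1, DNMT3A and DNMT3B followed each other in both treatments with no overlap of neighbouring ranges, given the exon lengths used for RPKM. In DMSO TET3 stood clear of TET2 and TET1, whose ranges overlapped. In silvestrol the range of TET3 (1.51 to 2.11 RPKM) overlapped that of TET2 (0.689 to 1.64 RPKM). Within each of the 2 silvestrol footprint libraries TET3 was above TET2, at 1.51 against 0.689 RPKM in replicate 1 and 2.11 against 1.64 RPKM in replicate 2.

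Other genes of DNA methylation were summarised from 6 lists holding 57 genes, of which 51 were tested. No gene of the lists was called in limma in any of the 3 comparisons, against backgrounds of 0.107% for TE, 0.0486% for footprints and 0.282% for RNA. In TE 37 of 51 had a change below 0 and 3 an unadjusted p under 0.05, with a median of -0.09, against 59.9% below 0 and a median of -0.08 over all tested genes. In footprints 37 of 51 were below 0, against 59.5% of all tested genes, and the median was -0.10 against -0.07. In RNA 26 of 51 were below 0, against 47.5%, and the median was -0.002 against 0.003. An unadjusted limma p under 0.05 was met by 4 list genes in footprints and by 4 in RNA. Over all 10297 tested genes it was met by 760 in TE, 719 in footprints and 950 in RNA. DNMT3L, the inactive partner of the DNMT3 enzymes, was listed at 0 in all 10 libraries, and MBD5, ZBTB38, NEIL1 and CXXC4 were also too low to be tested.

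HCFC1, a chromatin cofactor processed by the TET-binding enzyme OGT, had the largest TE difference of the lists. Its footprints were 22.2 and 19.8 RPKM with silvestrol, against 38.7 and 35.0 RPKM with DMSO, while its RNA was 47.7, 44.1 and 47.2 RPKM with silvestrol and 43.4, 44.8 and 44.3 RPKM with DMSO. The footprint groups stood far apart and the RNA groups overlapped. The TE change was -0.86 ± 0.227 (SE, log2), with a limma adjusted p of 0.304 and, with 1 spread for both assays, 0.00443. In the TET partner and 2-oxoglutarate list, 12 of 13 genes were tested and 7 had TE below 0, with a median of -0.04. Over all tested genes 59.9% had TE below 0 and the median was -0.08.

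Of the partners of DNA methyltransferases, 11 of 12 were tested and 9 had TE below 0, against 59.9% of all tested genes. SETDB1, a histone H3 lysine methyltransferase that works in silencing beside DNA methylation, had 3.92 and 4.58 RPKM in silvestrol footprints, against 7.28 and 6.37 RPKM in DMSO footprints. Its silvestrol values were both below its DMSO values, and the TE change was -0.71 ± 0.225 (SE, log2; limma adjusted p = 0.419, and 0.0200 with 1 spread for both assays). One more list gene was called in the fit with 1 spread: SIN3A, a corepressor scaffold that binds TET1, at -0.39 with an adjusted p of 0.0401. HCFC1, SETDB1 and SIN3A made up the 3 of 51 tested list genes called in that fit, a share near the 5.29% it called among all tested genes. SIN3A was singled out after its values were seen, and its footprints were 7.87 and 7.62 RPKM with silvestrol, against 9.99 and 9.38 RPKM with DMSO. Its RNA was 13.8, 14.3 and 14.4 RPKM with silvestrol, against 13.4, 13.1 and 13.4 RPKM with DMSO. SETDB1 RNA was 10.1, 10 and 10.2 RPKM with silvestrol, against 9.65, 9.44 and 9.35 RPKM with DMSO. By these values part of each TE change lies in RNA, though neither gene was called in RNA. In RNA ZBTB24, a zinc finger protein needed for methylation of centromeric repeats, was 9.72, 9.71 and 9.52 RPKM with silvestrol and 8.39, 8.26 and 8.87 RPKM with DMSO. The log2 change of 0.17 had a limma adjusted p of 0.0983, so ZBTB24 was not called.

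In base excision repair 8 of 9 genes were tested, with 5 below 0 in TE. NEIL2, a DNA glycosylase, had the largest TE difference there, at -0.84 ± 0.324 (SE, log2; limma adjusted p = 0.571), with 2.62 and 3.79 RPKM in silvestrol footprints, against 7.85 and 4.64 RPKM in DMSO footprints. The DMSO libraries of NEIL2 differed from each other by more than the groups' nearest values did. Among methyl-CpG readers 9 of 11 were tested, 7 were below 0 in TE, and MBD6 differed most at -0.58 (limma adjusted p = 0.909). In the S-adenosylmethionine cycle, which supplies the methyl donor, 10 of 11 were tested and 9 were below 0 in TE. MAT2B differed most there, at -0.31 (limma adjusted p = 0.829). These counts stand against 59.9% of all tested genes below 0 in TE, and no list was tested as a set. AMD1, the decarboxylase that draws S-adenosylmethionine into polyamine synthesis, differed most in footprints, at -0.33 (limma adjusted p = 0.738), and in RNA, at -0.07 (adjusted p = 0.606).

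The largest RNA differences in the remaining lists were small. UHRF2, the paralog of UHRF1, changed by 0.06 (limma adjusted p = 0.721), the glycosylase SMUG1 by 0.05 (adjusted p = 0.851), and IDH1, which makes the 2-oxoglutarate that TET enzymes use, by -0.13 (adjusted p = 0.352). TRDMT1, formerly DNMT2, resembles the DNA methyltransferases but methylates transfer RNA. Its footprints averaged 2.92 ± 0.375 RPKM with silvestrol and 2.10 ± 0.226 RPKM with DMSO (SD, n = 2 each), and its TE change was 0.42 (limma adjusted p = 0.839).

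Finally, the patterns of the tested members over the 10 libraries were set beside each other, after the DMSO mean of each assay had been subtracted. TET3 and DNMT3A were the most alike pair, with Pearson r = 0.89, and DNMT1 and DNMT3B the least, with r = -0.07. The genes most like TET3 were FAM117B (r = 0.990), NOCT (r = 0.988) and MEF2A (r = 0.988), and 760 of the tested genes had r above 0.9 with it. For DNMT1 they were STAG2-AS1, ENSG00000258653 and TMTC4 (r = 0.993 to 0.994), for DNMT3A GPR174, FBXO7 and EML4 (r = 0.988 to 0.990), and for DNMT3B CLPTM1, VPS16 and ENSG00000258232 (r = 0.965 to 0.972). These values describe 10 points that share libraries and their 2 treatments, and with so few points high values of r were common. Footprint replicates varied more than RNA replicates (median SD 0.18 and 0.19 against 0.04 and 0.05). The values of r therefore rest mostly on the footprint libraries.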

How the data were processed

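Per the file headers, the authors deposited RPKM values, 1 file per library, for 55889 Ensembl gene IDs. The submitters' processing notes name STAR and hg19, with no version or role. The sources used here do not give the counting tool, annotation, strand setting or rule for multiply mapped reads. In GENCODE release 29, DNMT1 was the one matched member sharing exon bases with another gene, S1PR2, over 0.847% of its exon length.

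The members and gene lists were chosen with earlier results of these data known. Groups came from the sample titles. Symbols came from a table of gene names (49395 IDs) and GENCODE release 29 (267 more), and 6227 IDs stayed unnamed. GENCODE, on GRCh38, gave exon lengths and 5' UTRs and no position for the deposited values. Depth was estimated from genes with 1 annotated transcript, as the total that brought their low values closest to whole reads. At that total 90.3 to 92.9% of values under 10.5 reads lay within 0.05 of a whole read. This share is not a separate check, because the total was chosen to bring the lowest of these same values close to whole reads. Estimated reads of members also assume the GENCODE exon lengths. Summed over genes, reads reached 118 to 120% of the RNA totals and 86.3 to 92.1% of the footprint totals. The estimates are therefore rough, and no count model was used.

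Tests used log2(RPKM + 0.5), which shrinks changes at low levels. Genes with a mean of at least 1 RPKM in RNA and at least 1 RPKM in footprints were tested, 10297 genes. This kept 4 of the 6 matched members and removed TET1 and TET2. R 4.3.3 with limma 3.58.1 (robust eBayes with trend) was used with Benjamini-Hochberg adjustment, and calls needed an adjusted p under 0.05. Footprints were fitted on 4 libraries, RNA on 6, and TE as the interaction over all 10 with weights estimated per assay. The fits were first run on simulated data with spreads set by hand, as a check of the code only. This does not show how often a change like that of TET3 would be called in these data. All tests were two-sided. All members are named; of each list, genes that were called are named, and otherwise the gene with the largest absolute change; for each tested member, the 3 genes most correlated with it are named. Alternatives were the pseudocount, the filter, median scaling, quantile normalization, a replicate block, 1 spread for both assays, RNA replicates 1 and 2 only, and leaving out each library. Python 3.11.15, pandas 2.3.3 and numpy 2.4.6 prepared the tables.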

Additional observations from a re-analysis of the deposited data

How the results depend on the processing

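No member was called for footprints or RNA under any alternative run, and for TE the fit with 1 spread for both assays called 1 (TET3). TET3 TE ranged from -1.36 to -0.98 over 18 alternatives, with limma adjusted p from 0.0233 to 0.993, and TET3 footprints from -1.28 to -0.90 over 10 (adjusted p 0.609 to 0.912). The filter at a mean of 5 RPKM removed TET3. DNMT1 RNA turned from 0.01 to -0.004089 with median scaling. Leaving out 1 library each time gave -0.00252 to 0.01836 for DNMT1 RNA, -0.34 to 0.08002 for DNMT3B TE and -0.41 to 9.2e-04 for DNMT3B footprints. Without 1 footprint library each time, footprint differences of TET2 ran from -0.13 to 0.72 and its TE from -0.14 to 0.71, those of TET1 from 0.20 to 1.33 and from 0.12 to 1.25, and those of DNMT1 from -0.32 to -0.03 and from -0.32 to -0.04. The causes were not tested.

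Counts over all genes moved more. TE calls, 11 as reported, were 545 with 1 spread and 5 with RNA replicates 1 and 2 only, and 8 to 44 without 1 library: 44 without silvestrol footprint replicate 1, 31 without silvestrol footprint replicate 2 and 21 without DMSO footprint replicate 1. The split of 9 lower and 2 higher TE calls became 9 and 4 with quantile normalization, 8 and 7 with no filter. Footprint calls, 5 as reported, were 2 with a pseudocount of 0.1, 2 with no filter, 2 with the filter at 5 RPKM, 8 with quantile normalization (3 lower and 5 higher, against 3 and 2) and 0 without any 1 of the 4 footprint libraries. RNA calls, 29 as reported, were 0 with no filter, 3 with RNA replicates 1 and 2 only, and 0 to 35 without 1 library. They were 0 without DMSO RNA replicate 1 or 3, 5 without DMSO RNA replicate 2 and 1 without silvestrol RNA replicate 3. Where a group was left with 1 library, that library was assumed to vary like the others.

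With the replicate block, TE gave 14 calls, footprints 1 and RNA 57, and no member was called. Deviations of same-numbered libraries correlated at -0.03 in footprints and at 0.04, -0.33 and 0.15 in RNA, so the numbers were not taken to pair the samples. Depth limits footprints most: TET1 and TET2 rested on an estimated 3.01 to 55.1 reads per library.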
